A study of Oryctolagus cuniculus with 9 samples.

Results

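STOM, SMPDL3A, SEPP1 and SGK1 are 4 of the 19511 loci measured by RNA sequencing in primary rabbit parathyroid cells. They were chosen from these same libraries because, relative to the median locus, each lay on one side of control after hypoxia and reoxygenation and moved the other way when gallic acid had been given first. STOM, SMPDL3A and SEPP1 were lower and then higher, and SGK1 was higher and then lower. Their levels are therefore given as a description, without a test, and so are both differences that chose them and the third, which is their sum. Each symbol matched 1 locus, and 4 of 4 passed the filter on low values.

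The study concerns gallic acid given ahead of ischaemia and reperfusion, modelled in cultured parathyroid cells. Control cells (3 libraries, genotype field WT, day 0) received no treatment. H/R cells (3 libraries, genotype field IRI) had 6 h of hypoxia and 6 h of reoxygenation. GA+H/R cells (3 libraries, genotype field IRI with GA) were first held for 24 h in 1200 µM gallic acid, an antioxidant phenolic acid found in plants, and then treated as the H/R cells. The labels give neither strain nor age of the rabbits, and do not tie libraries to animals or cultures, so p-values measure only the spread between libraries, which may be technical. They also do not say if H/R cells spent the 24 h without gallic acid, so culture times may differ between groups.

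Stomatin, the product of STOM, is a cholesterol-binding protein of lipid rafts first known from the red cell membrane. SMPDL3A encodes a secreted and lysosomal phosphodiesterase that resembles acid sphingomyelinase, cleaves nucleotides and is a target of liver X receptors in macrophages. SEPP1, now also called SELENOP, encodes selenoprotein P, the secreted protein that carries selenium between tissues and is taken up through LRP8 and LRP2. SGK1 is the serum- and glucocorticoid-regulated kinase, whose transcript is induced by corticosteroids and osmotic stress, and which acts downstream of PI3K through PDPK1 and mTOR complex 2.

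Values are FPKM, which correct fragment numbers for the length of the transcript and the size of the library, and the read depth behind them is unknown. As deposited, the median locus differed by -1.25 (log2) between H/R and control, and in GA+H/R by -0.50 from H/R and by -1.77 from control. Scaled FPKM are FPKM divided by a factor for each library that puts the median locus level (control 1.77 to 1.96, H/R 0.670 to 0.672, GA+H/R 0.422 to 0.424), and log2 differences are of scaled FPKM + 1 unless the deposited scale is named. Control 1 stood apart, correlating with the other controls at r = 0.984 and 0.982 across loci where those 2 correlated at 0.997. Of the defining parathyroid markers, the hormone transcript PTH was at 0.123 ± 0.0232, 0.0240 ± 0.0124 and 0.0172 ± 0.0234 FPKM in control, H/R and GA+H/R, and the symbols CASR and GCM2 were not matched. Of 11 listed parathyroid markers 9 were in the table and 4 were tested. Summed over those 9, scaled FPKM was 66.4 to 92.1 in control, 89.1 to 97.0 in H/R and 94.3 to 100.1 in GA+H/R, where CHGA, GATA3, TBX1 and KL were listed at 0. Fibroblast markers, of which 9 of 10 listed were in the table, summed to far higher values. Their scaled sums were 58765 to 98627 in control, 29561 to 29682 in H/R and 15272 to 15569 in GA+H/R. In bulk RNA, fewer cells of a type and less RNA per cell cannot be told apart.

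STOM was at 21.5, 52.1 and 57.9 FPKM in controls 1, 2 and 3, at 4.40, 6.73 and 4.86 in the H/R libraries, and at 12.9, 9.72 and 12.1 in the GA+H/R libraries. As deposited, the 3 groups did not overlap, with control on top and H/R at the bottom. Scaled, the controls were at 10.96, 28.8 and 32.8, the H/R libraries at 6.58, 10.03 and 7.23, and the GA+H/R libraries at 30.6, 22.9 and 28.7. All H/R libraries then lay under all others, although control 1 was close above H/R 2, while GA+H/R and control overlapped. The mean was 3.04-fold lower in H/R than in control and 3.45-fold higher in GA+H/R than in H/R, with log2 differences of -1.38 ± 0.35 and 1.68 ± 0.35 (SE). GA+H/R differed from control by 0.30 ± 0.35, a value under its own standard error, and by -0.16 without control 1.

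SMPDL3A was at 21.0, 34.8 and 28.2 FPKM in the controls, at 3.45, 3.82 and 5.53 in H/R, and at 7.22, 5.94 and 8.18 in GA+H/R. These deposited values also fell into 3 groups without overlap. Scaled, it was at 10.7, 19.2 and 15.99 in the controls, at 5.15, 5.69 and 8.23 in H/R, and at 17.1, 14.0 and 19.3 in GA+H/R. The H/R libraries were the lowest 3 of the 9, and those of GA+H/R fell among the controls. The log2 difference was -1.13 ± 0.23 in H/R against control (2.41-fold lower) and 1.29 ± 0.23 in GA+H/R against H/R (2.65-fold higher). GA+H/R against control gave 0.15 ± 0.23, and -0.06 without control 1.

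SEPP1 behaved differently from both in its end point. It was at 45.4, 85.3 and 74.7 FPKM in the controls, at 16.5, 12.4 and 15.6 in H/R, and at 60.5, 59.8 and 63.6 in GA+H/R, so that the deposited values of GA+H/R lay within the range of the controls. Scaled, the controls were at 23.1, 47.0 and 42.3, the H/R libraries at 24.6, 18.5 and 23.2, and the GA+H/R libraries at 143.5, 140.9 and 150.2. On that scale control 1 lay under H/R 1 and H/R 3, whereas every GA+H/R library was above every other library. The log2 difference was -0.69 ± 0.23 in H/R against control, and -0.97 without control 1. It was 2.67 ± 0.23 in GA+H/R against H/R (6.56-fold) and 1.98 ± 0.23 in GA+H/R against control (3.86-fold), the latter -0.11 on the deposited scale.

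SGK1 was at 20.0, 16.1 and 15.3 FPKM in the controls, at 16.1, 22.7 and 20.7 in H/R, and at 4.74, 5.32 and 6.76 in GA+H/R. Deposited values of H/R and control overlapped, and those of GA+H/R were under all others. Scaled, the controls were at 10.2, 8.86 and 8.64, the H/R libraries at 24.0, 33.8 and 30.9, and the GA+H/R libraries at 11.2, 12.5 and 15.98. On that scale the 3 groups did not overlap, with H/R highest and control lowest. The log2 difference was 1.57 ± 0.16 in H/R against control (3.20-fold higher, but 0.20 on the deposited scale) and -1.10 ± 0.16 in GA+H/R against H/R (2.23-fold lower). GA+H/R remained above control by 0.47 ± 0.16, where the deposited scale gave -1.46, so the side of control on which SGK1 ended depended on the scale.

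**Figure D1:**
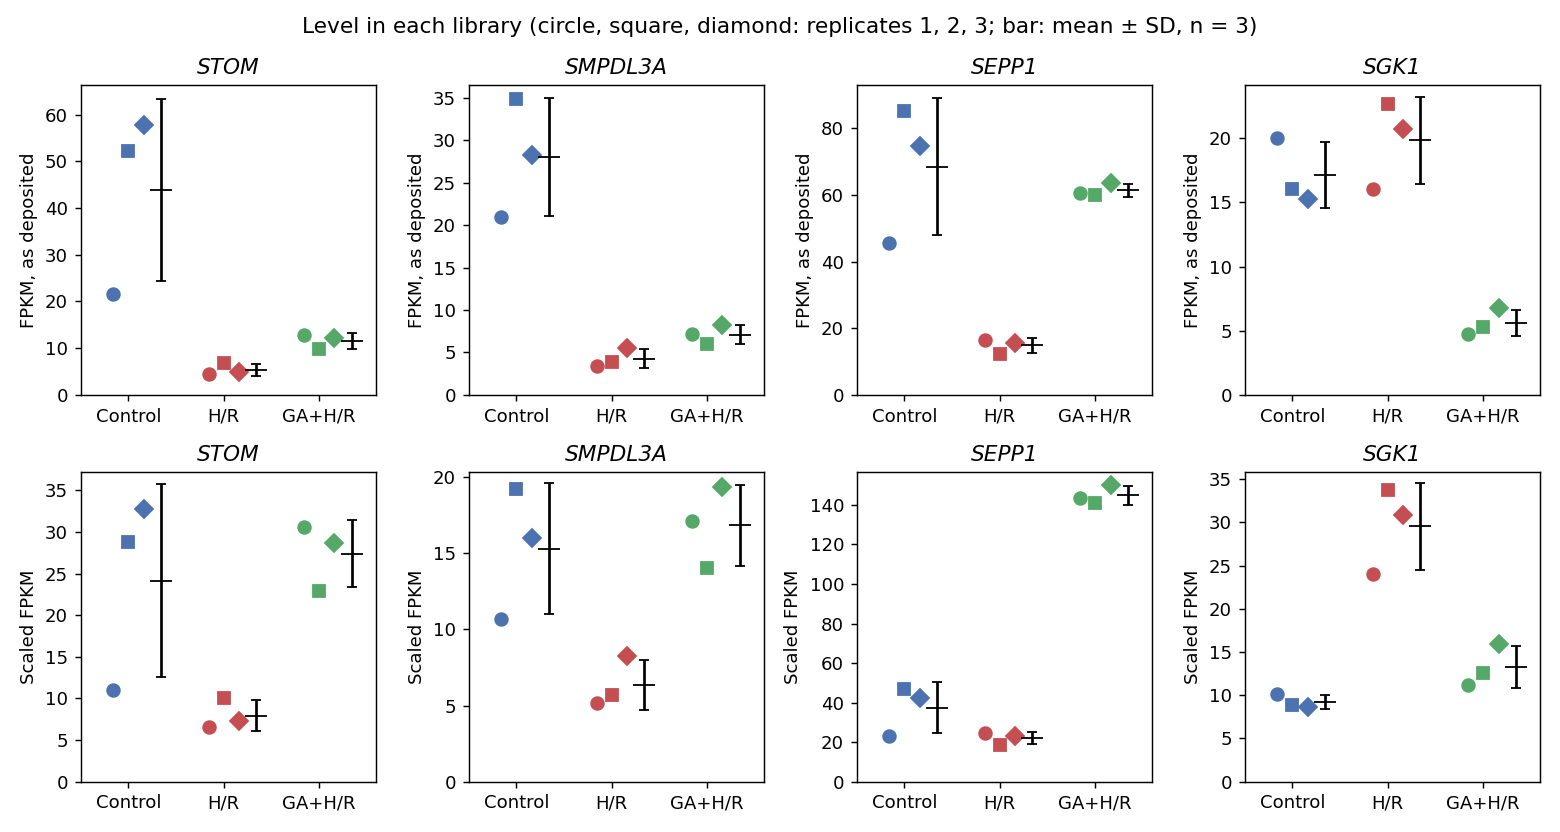
Level of each gene in each library, as deposited FPKM (top) and scaled FPKM (bottom). Points are libraries and bars are group means with SD (n = 3). STOM and SMPDL3A are lowest in H/R on both scales, SEPP1 is highest in GA+H/R only after scaling, and SGK1 in H/R is clear of control only after scaling.

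Ordered by level, scaled STOM and SMPDL3A ran from H/R to control and GA+H/R, and those last 2 groups overlapped. For SEPP1 the order was H/R, control and GA+H/R, with overlap between H/R and control, and for SGK1 it was control, GA+H/R and H/R with no overlap between neighbours. As a share of the first scaled log2 difference, the second was 122% for STOM, 114% for SMPDL3A, 389% for SEPP1 and 70.2% for SGK1. These shares depended on the scale. As deposited, the first and second differences were -2.72 and 0.9998 for STOM, and -2.45 and 0.63 for SMPDL3A. They were -2.10 and 1.99 for SEPP1, and 0.20 and -1.65 for SGK1. There the second was smaller in size than the first for STOM, SMPDL3A and SEPP1, and larger for SGK1. The scaled first difference of SEPP1 ran from -0.97 to -0.48 with 1 library left out. The spread between libraries, as replicate SD on the log2 scale, was 0.51 for STOM, 0.32 for SMPDL3A, 0.33 for SEPP1 and 0.21 for SGK1. Among the controls, control 1 lay at 35.6% of the mean of the others for STOM, 60.7% for SMPDL3A and 51.7% for SEPP1, against 116% for SGK1 (scaled FPKM).

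Among the 10956 loci tested relative to the median locus, 57.6% were called between control and H/R, 33.9% between H/R and GA+H/R, and 69.2% between control and GA+H/R (limma, Benjamini-Hochberg adjusted p under 0.05). The H/R libraries lay under all controls for 33% of loci, STOM and SMPDL3A among them, and above all controls for 34.1%, SGK1 among them. GA+H/R lay above every H/R library for 27.4% of loci, with STOM, SMPDL3A and SEPP1, and under for 24.5%, with SGK1. Above every control were 35% of loci in GA+H/R, with SEPP1 and SGK1. Both steps together, lower and then higher, were free of overlap for 4.96% of loci, and STOM and SMPDL3A met this while SEPP1 did not. The opposite pattern, higher and then lower without overlap, held for 3.5% of loci, SGK1 among them. Since the members were chosen for these directions, nothing is read from their places. On the deposited scale 10996 loci were tested, with 90.2% called between control and H/R and 66% between H/R and GA+H/R. There 86.5% of loci lay wholly lower in H/R than in control, STOM, SMPDL3A and SEPP1 among them, and 90.1% wholly lower in GA+H/R than in control, which held STOM, SMPDL3A and SGK1. In the second step only 3.2% lay wholly higher, again with STOM, SMPDL3A and SEPP1, and 72% wholly lower, with SGK1. The 2-step patterns without overlap were then at 1.3% of loci, with those 3 genes, and at 0.982%, without SGK1.

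Called in both comparisons were 265 loci that fell and then rose (2.42%) and 162 that rose and then fell (1.48%), against 0.573% and 0.582% on the deposited scale. Without control 1 these counts were 366 and 293, and leaving out single H/R libraries gave as few as 159 (without H/R 3; 162 without H/R 2) and 88 (without H/R 2; 97 without H/R 1). Ranked by the smaller of both differences, STOM was 1, SMPDL3A 3 and SEPP1 20 among the loci that fell and then rose, and SGK1 was 20 among those that rose and then fell. The ranks use the same differences that chose these 4 genes, so nothing is read from their places. MMP13, a collagenase, ranked 2, at 5891, 333 and 498 FPKM in control, H/R and GA+H/R on average, with log2 changes of -2.68 ± 0.11 (adjusted p = 1.34e-07) and 1.24 ± 0.11 (adjusted p = 7.39e-05). It ended under control, by -1.43. MARCH1, a membrane ubiquitin ligase that acts on MHC class II, and IGSF6, an immunoglobulin superfamily protein of myeloid cells, ranked 4 and 5, but their second calls were lost under 10 of 19 and 6 of 18 alternatives.

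The loci ahead of SGK1 included both proteases and signalling genes. ADAMTS4, an aggrecanase, averaged 33.1, 81.0 and 11.99 FPKM in control, H/R and GA+H/R, with log2 changes of 2.73 ± 0.23 (adjusted p = 1.37e-05) and -2.06 ± 0.23 (adjusted p = 2.83e-04). MMP9, a gelatinase, averaged 6.66, 22.8 and 5.21 FPKM and changed by 2.97 ± 0.27 (adjusted p = 2.19e-05) and -1.42 ± 0.27 (adjusted p = 0.00408). Both were higher in H/R than in control on the deposited scale as well, by 1.31 and 1.70, against 0.20 for SGK1, whose deposited values overlapped between these groups. RGS4, a regulator of G protein signalling, was between 2.21 and 4.83 FPKM in H/R and under 0.170 in GA+H/R. FNDC7 was listed at 0 in all control and GA+H/R libraries, and NFE2, a transcription factor of blood cells, was under 1 FPKM there, so these passed the filter only through H/R.

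**Figure D2:**
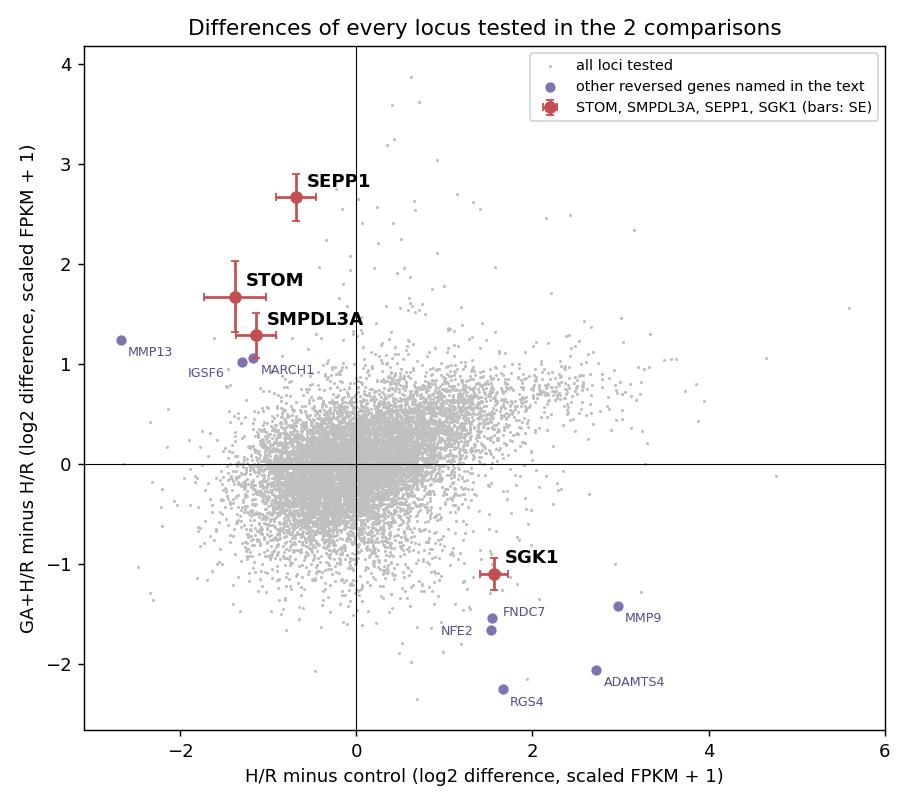
Log2 difference of every tested locus in H/R against control (x axis) and in GA+H/R against H/R (y axis), on scaled FPKM + 1. Bars on the 4 genes are SE; STOM, SMPDL3A and SEPP1 lie at the upper left and SGK1 at the lower right, beside the other reversed genes named.

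Ratios within a library do not depend on how libraries are scaled. FPKM of different loci are not known to share a scale here, so such a ratio is read only between libraries. The choice of genes that move in opposite directions itself places the ratios to SGK1 lowest in H/R, so these are a description. SEPP1 to SGK1 was 2.27 to 5.31 in control, 0.548 to 1.03 in H/R and 9.40 to 12.8 in GA+H/R, with no overlap between groups. STOM to SGK1 was 1.08 to 3.79 in control, 0.234 to 0.297 in H/R and 1.79 to 2.73 in GA+H/R. SMPDL3A to SGK1 was likewise lowest in H/R, at 0.169 to 0.267, against 1.05 to 2.17 in control and 1.12 to 1.53 in GA+H/R. STOM and SMPDL3A kept overlapping ratios in the 3 groups (1.03 to 2.05, 0.879 to 1.76 and 1.48 to 1.79). SEPP1 to STOM was highest in GA+H/R, at 4.69 to 6.15, against 1.29 to 2.11 in control and 1.84 to 3.74 in H/R.

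**Figure D3:**
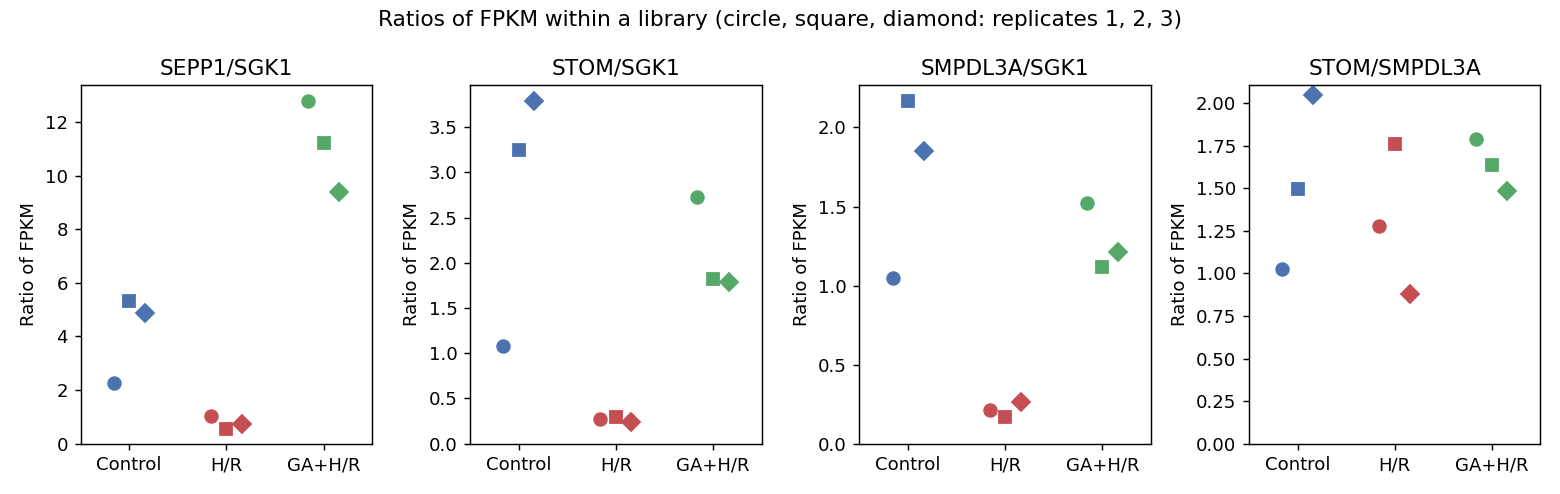
Ratio of the FPKM of pairs of the 4 genes in each library, by group. Ratios to SGK1 are lowest in the H/R libraries, and SEPP1 to SGK1 reaches 12.8 in GA+H/R.

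Loci with the most similar profile over the 9 libraries were ranked by Pearson r of log2 scaled FPKM + 1, among 2352 loci. The 9 points fall into 3 groups and share their libraries, so r is a description. STOM and SMPDL3A were each other's closest neighbour (r = 0.925), but with the deposited FPKM SMPDL3A was only the fifth neighbour of STOM, and STOM was not among the 5 of SMPDL3A. Both had ST6GALNAC3, a sialyltransferase, next (r = 0.896 and 0.902), and it was at 4.30, 14.3 and 15.1 FPKM in the controls, 0.575 to 0.918 in H/R and 1.04 to 2.96 in GA+H/R. AOAH, the acyloxyacyl hydrolase that inactivates lipopolysaccharide, and GPR34, a lysophosphatidylserine receptor, were also among the 5 neighbours of both, at r of 0.791 to 0.851. STOM also had RAB27B, a GTPase of vesicle secretion, among its 5 (r = 0.822), and SMPDL3A had ABCA8, a lipid transporter (r = 0.829).

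For SEPP1 the closest profile was that of AOAH (r = 0.969), at 21.8, 48.4 and 52.4 FPKM in the controls, 8.77, 8.56 and 8.90 in H/R, and 19.1, 23.6 and 21.9 in GA+H/R. It was followed by PPBP, a platelet chemokine precursor (0.967), GGH, a lysosomal folate hydrolase (0.957), CCL7, a monocyte chemokine (0.953), and CLEC4G, a C-type lectin (0.948). CLEC4G was listed at 0 in all H/R libraries and in controls 1 and 2, and passed the filter only through GA+H/R. SGK1 was closest to PLK3, a stress-responsive kinase (r = 0.984), at 4.32, 3.22 and 3.85 FPKM in the controls, 4.53, 5.71 and 5.56 in H/R, and 1.37, 1.37 and 2.07 in GA+H/R. GPRC5A, an orphan receptor induced by retinoic acid (0.943), RASD1, a dexamethasone-induced GTPase (0.941), DNTTIP1, a histone deacetylase complex subunit (0.941), and FNDC7 (0.940) came next. Without control 1, 2 of the 5 neighbours of each of the 4 genes stayed, and those of SEPP1 became MRC1, AOAH, PPBP, GPNMB and CD36. On the deposited scale 2, 1, 2 and 2 of the 5 stayed for STOM, SMPDL3A, SEPP1 and SGK1.

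Macrophage markers, like scaled SEPP1, were highest in GA+H/R. Of 18 listed markers, 15 were in the table, and their summed scaled FPKM was 6.38 in control 1, 50.3 and 58.6 in the other controls, 55.3 to 71.1 in H/R and 530 to 578 in GA+H/R (as deposited, 12.5 to 103, 37.1 to 47.6 and 225 to 245 FPKM). Of the 10 tested, 4 rose and 0 fell in H/R against control (limma; 5 and 0 at an unadjusted p under 0.05; 2 rose without H/R 2 or H/R 3, and 1 fell without control 1; with quantile normalization, a pseudocount of 0.1 or no filter 2 rose, and with the deposited FPKM 0 of 8 rose, unadjusted too), where 29.2% of loci rose and 28.4% fell. In GA+H/R against H/R 9 rose and 0 fell (also 9 and 0 unadjusted, and 7 to 10 rose with any 1 library left out), where 18.7% of loci rose and 15.2% fell. The filter needs only 3 libraries, so a marker could enter through GA+H/R alone, and these counts are a description. With the deposited FPKM 7 of 8 tested were called higher in this step (limma). On that scale 66% of all loci were called in either direction, and 3.2% lay wholly higher, which is a different criterion. MRC1, a mannose receptor, was at 1.55, 42.6 and 46.5 FPKM in the controls, 11.2, 10.6 and 11.2 in H/R, and 85.5, 90.2 and 96.4 in GA+H/R. Other defining markers stayed near 0: PTPRC, the leukocyte tyrosine phosphatase CD45, was at most 0.111 FPKM in any library, and CD74 was listed at 0 in GA+H/R. In H/R the marker sum was under that of controls 2 and 3 as deposited, as were STOM, SMPDL3A and SEPP1, and near it when scaled. Control 1 was the lowest control for the sum and for those 3 genes. The part of macrophage RNA in the levels of the 4 genes was not tested.

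Markers of red cells, the cells for which stomatin is best known, were nearly unmeasured. The 2 of 6 matched, ALAS2 and SLC4A1, summed to 0.119 FPKM or less in every library. Fibroblast markers fell, 7 of 8 tested in H/R against control and 4 of 8 from H/R to GA+H/R, where 28.4% and 15.2% of all loci fell. In both steps 0 rose (limma), but in the second 1 rose at an unadjusted p under 0.05 and 2 without control 1. Lists of short and long housekeeping transcripts changed in opposite directions relative to the median locus. Length itself was not measured, and the lists also hold different kinds of genes. Among 13 short housekeeping transcripts 13 rose in the first step and 11 in the second (medians 1.28 and 0.61), where 29.2% and 18.7% of all loci rose. Among 17 long ones 14 and 12 fell (medians -0.34 and -0.39, and 9 fell in the first step with quantile normalization), where 28.4% and 15.2% of all loci fell. With the deposited FPKM 3 short ones rose and 5 fell in the first step, 1 rose and 1 fell in the second, and all 17 long ones fell in both. On that scale 90.2% and 66% of all loci were called in these steps, and 86.5% and 72% lay wholly lower. The part of length in the levels of the 4 genes was not tested.

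**Figure D4:**
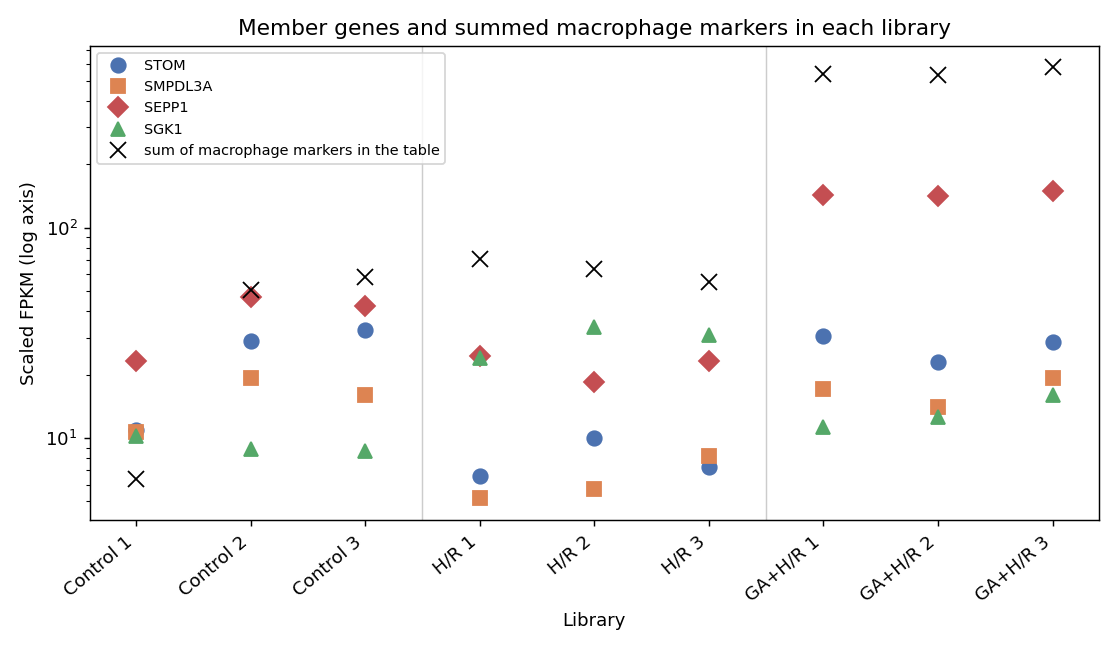
Scaled FPKM of the 4 genes and the sum of the macrophage markers in each library, on a log axis. The marker sum is highest in GA+H/R, at 530 to 578, as is SEPP1, and lies at 55.3 to 71.1 in H/R, where STOM, SMPDL3A and SEPP1 are low.

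Genes around SGK1 were described from 3 lists. Of 21 kinases, activators and substrates linked to SGK1, 18 were in the table and 17 tested. In H/R against control 3 rose and 6 fell (29.2% and 28.4% of all loci; 5 rose without GA+H/R 3), with a median of -0.03. FOXO1, a transcription factor that SGK1 phosphorylates, fell by 0.95 ± 0.14 (adjusted p = 5.01e-04), and RICTOR, the mTOR complex 2 subunit needed for SGK1 activation, fell by 0.90 ± 0.11 (adjusted p = 1.23e-04). In GA+H/R against H/R 1 rose and 1 fell (18.7% and 15.2% of all loci), MLST8 and FOXO1, and each of these calls was lost without single H/R libraries (adjusted p of 0.055 to 0.124). The count that fell was 4 without control 1. The substrates NEDD4L, a ubiquitin ligase of sodium channels, and NDRG1 were not called in either comparison, with log2 differences of -0.39 ± 0.19 and 0.18 ± 0.13 in the first. Between control and GA+H/R, where 33.7% of loci rose and 35.5% fell, 3 of the 17 rose and 8 fell.

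Of 23 corticosteroid receptor and glucocorticoid-induced genes, 18 were tested. Between control and H/R 4 rose and 4 fell (29.2% and 28.4% of all loci), although 8 rose without control 1 and 2 fell without H/R 1 or H/R 3. CEBPD, a transcription factor, rose by 1.40 ± 0.12 (adjusted p = 1.44e-05; -0.05 on the deposited scale). NR3C1, the glucocorticoid receptor itself, fell from 44.4 ± 6.90 to 9.41 ± 0.421 FPKM as deposited, where the median locus differed by -1.25 (log2). Relative to the median locus its log2 change was -0.73 ± 0.10. In GA+H/R against H/R 6 fell and 0 rose (15.2% and 18.7% of all loci; limma; 6 and 0 at an unadjusted p under 0.05, and 2 rose without control 1, 1 without GA+H/R 3). CRISPLD2, a secreted lipopolysaccharide-binding protein, fell by 1.22 ± 0.13 (adjusted p = 1.90e-04), ZBTB16, a zinc finger repressor, by 0.88 ± 0.17 (adjusted p = 0.00445) and PER1, a clock gene, by 0.70 ± 0.12 (adjusted p = 0.00289). FKBP5 and TSC22D3, 2 widely used glucocorticoid targets, were not called in either step, at 0.18 ± 0.14 and 0.41 ± 0.30 in GA+H/R against H/R.

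The same order as SGK1, up and then down, was called for DUSP1 and NFKBIA of that list, both named after their values were seen. DUSP1, a phosphatase of MAP kinases, was at 468, 466 and 416 FPKM in the controls, 257, 244 and 240 in H/R, and 112, 107 and 98.3 in GA+H/R. Its changes relative to the median locus were 0.60 ± 0.07 (adjusted p = 7.48e-05) and -0.56 ± 0.07 (adjusted p = 4.04e-04), whereas the deposited scale gave -0.86 for the first. NFKBIA, the NF-kB inhibitor, changed by 0.53 ± 0.09 and -0.31 ± 0.09, with -0.67 for the first on the deposited scale, and its second call was lost without any 1 of the H/R or GA+H/R libraries. SGK1 differed from both in that its deposited level in H/R was not below control.

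All 7 osmotic stress genes were tested. From control to H/R 4 rose and 2 fell, where 29.2% and 28.4% of all loci did. From H/R to GA+H/R, where 15.2% of all loci fell and 18.7% rose, 5 fell and 0 rose (limma; 5 and 0 at an unadjusted p under 0.05, and 2 fell without H/R 1, 3 without H/R 2 or GA+H/R 1). SLC5A3, the myo-inositol transporter, was at 163, 89.8 and 98.4 FPKM in the controls, 64.5, 59.8 and 63.6 in H/R, and 24.6, 22.2 and 19.7 in GA+H/R. It rose by 0.60 ± 0.17 and fell by 0.83 ± 0.17 (adjusted p = 0.00642 for the fall), and the first was -0.84 on the deposited scale. SLC6A12, the betaine transporter, was at most 0.254 FPKM in control, between 1.01 and 1.89 in H/R and at most 0.604 in GA+H/R, and its fall was not called without H/R 1, H/R 2, GA+H/R 1 or GA+H/R 3. NFAT5, the transcription factor of the osmotic response, fell by 0.97 ± 0.05 in H/R against control (adjusted p = 6.66e-07), the opposite direction to SGK1.

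Selenoproteins other than SEPP1 were called in both directions. Of 34 symbols, which include older and newer names, 18 were in the table and 13 tested. The first step had 5 that rose and 4 that fell (29.2% and 28.4% of all loci), and in the second 4 rose and 2 fell (18.7% and 15.2% of all loci). GPX1, a cytosolic glutathione peroxidase, rose by 1.36 ± 0.12 and again by 0.80 ± 0.12 (adjusted p = 1.73e-05 and 0.00114), but was at -0.09 and 0.14 on the deposited scale. SELT, an endoplasmic reticulum selenoprotein named after its values were seen, was the 1 list member called down and then up like SEPP1, at -0.76 ± 0.10 and 0.32 ± 0.10, and the second was -0.33 on the deposited scale. SEPHS2, which makes the selenium donor, went up and then down, by 1.32 ± 0.15 (-0.06 on the deposited scale) and -0.67 ± 0.15 (adjusted p = 0.00889). GPX3, the other secreted selenoprotein of the list, was at 23.6 ± 5.16, 9.47 ± 0.818 and 7.56 ± 0.708 FPKM and was not called in either step.

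Of 11 genes for selenium incorporation and selenoprotein P uptake, 7 were tested. From control to H/R 1 rose and 2 fell, and from H/R to GA+H/R 1 rose and 2 fell (4 fell without control 1, and 1 without any of H/R 2, H/R 3, GA+H/R 1 or GA+H/R 3). LRP1, an endocytic receptor, fell in both, by 0.97 ± 0.11 and 0.93 ± 0.11 (adjusted p = 7.89e-05 and 3.72e-04). TRNAU1AP, a factor for selenocysteine insertion, rose by 0.82 ± 0.09 and 0.44 ± 0.09, against -0.42 and -0.15 on the deposited scale. The shares over all loci were 29.2% and 28.4% in the first step and 18.7% and 15.2% in the second.

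The stomatin list held 23 symbols for stomatin relatives, prohibitins, flotillins, caveolins and partners, of which 12 were tested. Between control and H/R 6 rose and 2 fell, between H/R and GA+H/R 4 rose and 1 fell (of all loci 29.2% and 28.4%, then 18.7% and 15.2%). None was called in opposite directions, which held for 2.42% and 1.48% of all loci. The single fall was not called without either of controls 2 and 3, H/R 1, H/R 3, GA+H/R 1 or GA+H/R 2. PHB2, a mitochondrial prohibitin of the same protein superfamily, rose by 1.12 ± 0.08 (adjusted p = 4.82e-06) where STOM was at -1.38, and by 0.56 ± 0.08 in the second step (adjusted p = 9.67e-04). PRKCDBP, a caveolae protein also called CAVIN3, rose by 1.22 ± 0.05 and 0.45 ± 0.05. On the deposited scale both were lower in H/R than in control, by -0.31 and -0.23.

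For SMPDL3A, the list of sphingomyelin and ceramide genes had 20 of 26 symbols tested. Under H/R 3 rose and 12 fell (29.2% and 28.4% of all loci), with a median of -0.43, and the 3 were 1 without control 2, H/R 1 or H/R 3. CERS6, a ceramide synthase, fell by 1.20 ± 0.21 (adjusted p = 0.00117), and SPTLC2, a subunit of serine palmitoyltransferase, by 1.13 ± 0.10 (adjusted p = 2.44e-05), beside the -1.13 of SMPDL3A. SPTLC2 then changed by -0.75 ± 0.10 in GA+H/R against H/R (adjusted p = 8.80e-04), where SMPDL3A was at 1.29. In GA+H/R against H/R 1 rose and 3 fell (18.7% and 15.2% of all loci; 2 rose without control 1 or H/R 1). SMPD1, acid sphingomyelinase, the enzyme that SMPDL3A resembles, was at 316 ± 3.40, 94.7 ± 3.40 and 40.1 ± 4.59 FPKM. Its second change was -0.58 ± 0.09 (adjusted p = 0.00172), on the other side of 0 from the 1.29 of SMPDL3A, and the difference between the 2 genes was not tested.

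Of 17 liver X receptor genes and targets, 11 were tested, beside shares over all loci of 29.2% up and 28.4% down, then 18.7% and 15.2%. From control to H/R 1 rose (2 without H/R 3) and 2 fell (1 without any of controls 2 and 3, H/R 2 or H/R 3). From H/R to GA+H/R 1 rose (3 without control 1, 2 without H/R 1 or GA+H/R 1) and 0 fell (limma; 2 at an unadjusted p under 0.05, 2 without control 1 and 1 without control 3, H/R 3, GA+H/R 2 or GA+H/R 3). ABCA1, the cholesterol exporter, was at 12.97, 10.4 and 11.7 FPKM in the controls, 1.70, 1.71 and 2.18 in H/R, and 2.78, 2.45 and 2.66 in GA+H/R. It fell by 0.95 ± 0.11 (adjusted p = 9.88e-05), rose by 0.94 ± 0.11 (adjusted p = 4.04e-04) and ended at -0.02 against control, as SMPDL3A ended at 0.15. Both directions held for ABCA1 on the deposited scale, at -2.14 and 0.34, but the end points did not. As deposited, ABCA1 averaged 11.7 FPKM in control and 2.63 in GA+H/R, and SMPDL3A differed by -1.82 (log2) between GA+H/R and control.

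**Figure D5:**
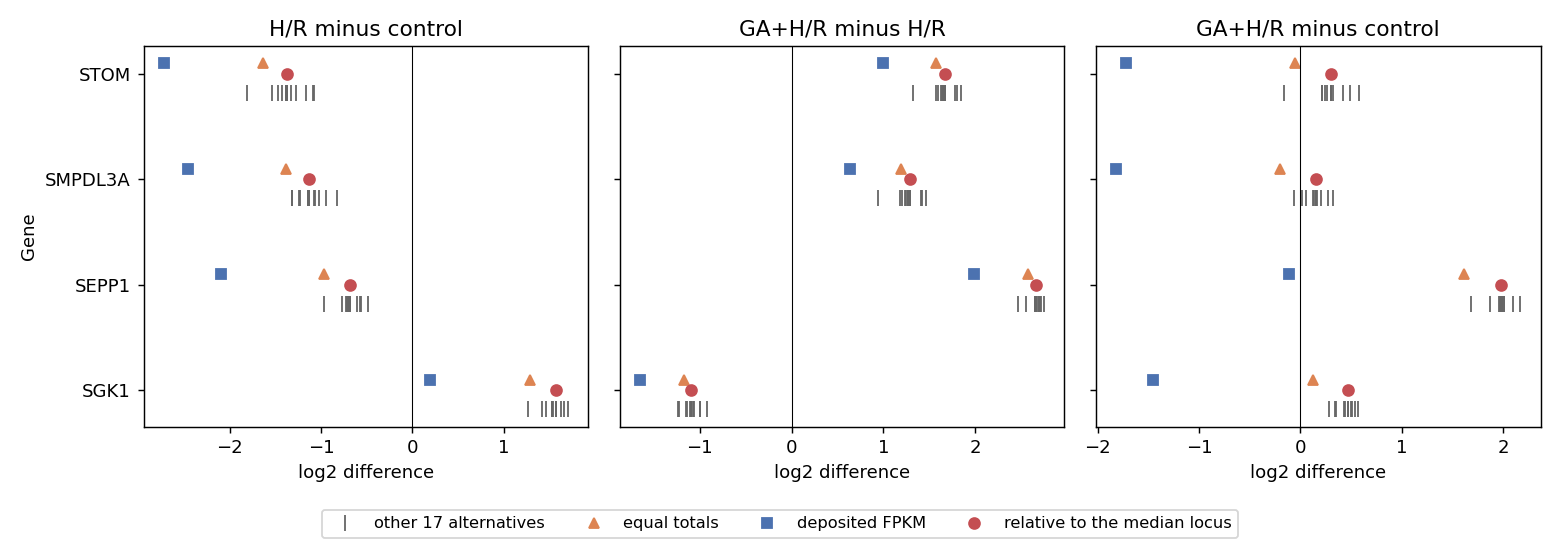
Log2 difference of the 4 genes in each comparison under the scaling relative to the median locus (circles), with the deposited FPKM (squares), with equal totals (triangles) and under the other alternatives (ticks). The first 2 comparisons, for whose signs the genes were chosen, keep their sign for every gene. GA+H/R against control changes sign with the scale for all 4.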

How the data were processed

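The 9 libraries were grouped by their titles. The authors deposited 1 table with FPKM per locus and library, per the file headers. The aligner and quantification tool are not given in the sources used here. P-value and q-value columns, deposited by the authors for 1 test over the 3 groups, were left unused. Read counts were not used here, so depth is unknown and precision rests on 3 libraries per group.

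The scale factor of a library was the median, over loci reaching FPKM 1 in all 9 libraries, of its value relative to the mean over libraries. Loci were tested where 3 or more libraries reached a scaled FPKM of 1, and log2 of scaled FPKM with a pseudocount of 1 was fitted with limma 3.58.1 in R 4.3.3 (group means, eBayes with trend and robust settings). Two-sided p-values were adjusted by the Benjamini-Hochberg method across every locus tested. The code was tested on simulated data.

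The 4 genes and the 18 lists (10 of pathways, 8 of cell markers) were chosen with earlier results of these data known. Of each pathway list, up to 3 called genes with the largest log2 difference per comparison could be named, and further list members named with values were picked for their known roles after these were seen. For each of the 4 genes the 5 loci with the highest Pearson r, among tested loci with a single gene name and an SD of at least 0.5, were named, as were the 5 reversed loci per direction with the largest smaller difference. Placeholder names were skipped. Endothelial, smooth muscle, epithelial and adipocyte marker lists had 1, 5, 0 and 1 members tested, and no result of the 4 genes turned on them. Alternatives were other scalings, pseudocounts, filters and fits, and leaving out each library.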

Additional observations from a re-analysis of the deposited data

How the results depend on the processing

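No read counts were used, so counting error cannot be given, and the scale between libraries rests on the median locus. Both steps, from control to H/R and from H/R to GA+H/R, kept their direction for all 4 genes under all alternatives run, and GA+H/R against control did not. The genes were chosen for those 2 directions, and other filters or fits cannot alter a difference of group means, so this is a description. With the deposited FPKM, the first step (control to H/R), the second (H/R to GA+H/R) and their sum were -2.72, 0.9998 and -1.72 for STOM, -2.45, 0.63 and -1.82 for SMPDL3A, -2.10, 1.99 and -0.11 for SEPP1, and 0.20, -1.65 and -1.46 for SGK1. Called loci were then 9922 in the first step and 7255 in the second, and reversed loci 63 and 64. With equal totals, GA+H/R against control was -0.0576 for STOM, -0.20 for SMPDL3A, 1.61 for SEPP1 and 0.12 for SGK1, H/R against control 1.29 for SGK1, and reversed loci 166 and 85. A pseudocount of 5 gave 0.94 for SMPDL3A in the second step and 1.27 for SGK1 in the first, since it compresses low values, and no filter gave 321 loci that rose and then fell. Leaving out 1 library, GA+H/R against control ranged from -0.16 to 0.58 for STOM and from -0.0584 to 0.32 for SMPDL3A (negative without control 1), and reversed loci from 159 to 366 and from 88 to 293. The causes of the other shifts were not tested. Over all alternatives 1200 list counts stayed within 1.5 times and 168 did not. With the deposited FPKM 90.2% of all loci were called in the first step and 66% in the second, at medians of -1.25 and -0.50 (log2). On that scale 86.5% and 72% of all loci lay wholly lower in these steps, so falls counted in the lists are not read as results of the lists. With the deposited FPKM, list members that rose and fell in the first step, then in the second, were 0 and 15, then 0 and 15 (SGK list), 0 and 16, then 0 and 11 (glucocorticoid), 2 and 5, then 0 and 7 (osmotic), 0 and 9, then 0 and 4 (selenoproteins), 0 and 8, then 0 and 5 (selenium incorporation), 0 and 12, then 0 and 8 (stomatin), 0 and 21, then 0 and 15 (sphingomyelin), 0 and 10, then 1 and 5 (liver X receptors), 3 and 5, then 1 and 1 (short transcripts), 0 and 17, then 0 and 17 (long transcripts), 0 and 0, then 7 and 0 (macrophage), and 0 and 9, then 0 and 5 (fibroblast), in limma, and each 0 was also 0 at an unadjusted p under 0.05. Signs of named genes that turned with the deposited FPKM included, in H/R against control, SLC5A3 -0.84, NDRG1 -1.25, GPX3 -1.22, CEBPD -0.0501, GLUL -0.16, GPX1 -0.0887, SEPHS2 -0.0632, MSRB1 -0.13, TRNAU1AP -0.42, PRKCDBP -0.23, PHB2 -0.31, PHB -0.30, NR1H2 -0.22, DUSP1 -0.86 and NFKBIA -0.67, in GA+H/R against H/R, SELT -0.33, FKBP5 -0.46, TSC22D3 -0.25, GPX3 -0.29, MLST8 -0.0727, TRNAU1AP -0.15, PHB2 -0.0914, PRKCDBP -0.22 and STOML2 -0.21, and in GA+H/R against control, MLST8 -0.12, GLUL -0.35, CEBPD -0.70, MSRB1 -0.12, SELM -0.50, TRNAU1AP -0.57, PHB2 -0.40, PRKCDBP -0.45, PHB -0.52, SPHK1 -0.81, NR1H2 -0.51, PLTP -0.53 and APOE -1.38. Replicate numbers name libraries only: same-numbered libraries deviated together at r of -0.018 to 0.026 over 9 pairs. A replicate block cannot change the differences of the 4 genes (STOM -1.38 and 1.68), since every group holds the same replicate numbers. With the block 6142, 3385 and 7441 loci were called, and 222 and 148 were reversed.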
